A study of Mus musculus with 10 samples.

Results

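The genes described here are 9 chemokine receptor genes of mouse regulatory T cells (Tregs): Ccr1, Ccr2, Ccr4, Ccr6, Ccr9, Ccr10, Cxcr3, Cxcr4 and Cxcr6. They were taken by symbol from the 54532 genes of the series' count table, and each symbol matched 1 row. Chemokine receptors are G protein-coupled receptors of the cell surface. Each binds 1 or a few chemokines, small secreted proteins, and steers the cell toward the tissue or the partner cell that makes them. Tregs, the CD4 T cells that need the transcription factor Foxp3 and hold immune responses in check, use them to enter the gut wall, inflamed tissue and tumours, and to meet dendritic cells.

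The profiled cells were sorted on CD45, CD3, CD4, CD25 and GFP, and their RNA was read by Smart-seq2, which copies whole transcripts from small inputs. The Tumor group held 5 libraries from colon tumours of Apc Min/+ mice, which carry a truncating allele of the Wnt inhibitor Apc and form intestinal tumours. The WT group held 5 libraries from the colon of mice without that allele. Both groups carried Foxp3 DTR, a diphtheria toxin receptor placed under Foxp3, and all mice were C57BL/6 males of 16 weeks, per the labels. The labels do not tie libraries to animals, and p-values therefore reflect only how far these libraries differ, which may be technical.

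The libraries held 3054435 to 7747699 reads in Tumor and 1676229 to 8412887 in WT. The geometric mean of 14 pan-T genes, among them the CD3 chain genes and Lck, was 279 to 422 CPM (reads of a gene scaled to a common library size) in Tumor and 11.2 to 101 CPM in WT. In WT replicates 1 and 2, 12 epithelial genes summed to 19030 and 26451 CPM, against 29.5 to 3410 CPM in Tumor and 141 to 216 CPM in WT replicates 3 to 5. Of 12 macrophage and monocyte genes, 0 were at 0 reads in any Tumor library and up to 2 in a WT library, and they summed to 1334 to 6063 CPM in Tumor and 74.7 to 212 CPM in WT. The 6 Treg markers, Foxp3 among them, had reads in every library and summed to 2114 to 4769 CPM in Tumor and 75.01 to 867 CPM in WT. Receptor levels are therefore given on 2 scales. The first is CPM scaled by the trimmed mean of M values (TMM), which sets most genes level between libraries. The second divides each library by its pan-T genes and so gives receptor reads relative to T cell RNA. Marker sums and pan-T levels, here and below, are CPM by total counts, without TMM. Over all tested genes the median log2 fold change was -0.20 on the TMM scale and -3.68 on the pan-T scale, a shift of -3.48. In bulk libraries, fewer T cells and less RNA per cell cannot be told apart.

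Setting Tumor against WT asks how the Tregs of Apc Min/+ colon tumours differ from those of colon without that allele. On the TMM scale 5 receptors rose in Tumor: Cxcr6, Ccr1, Cxcr3, Ccr6 and Cxcr4. Ccr2 was higher in every Tumor library than in any WT library, as were Cxcr6, Ccr1, Cxcr3 and Cxcr4 (such a separation held for 4.38% of tested genes), but missed the threshold, Ccr9 and Ccr4 had smaller positive values that did not pass, and Ccr10 had too few reads to be tested. Relative to pan-T genes only Cxcr6 was called higher and Ccr4 was called lower. Of the 9 genes 8 passed the filter on low counts. Calls were made at an adjusted p below 0.05 (edgeR quasi-likelihood test, Benjamini-Hochberg adjustment over 21414 genes), a rule that called 1.59% of all tested genes on the TMM scale, 1.37% higher and 0.219% lower. On the pan-T scale it called 91.6%, of which nearly all were lower. The receptors were chosen with results of these data known, so their count is a description.

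**Figure D1:**
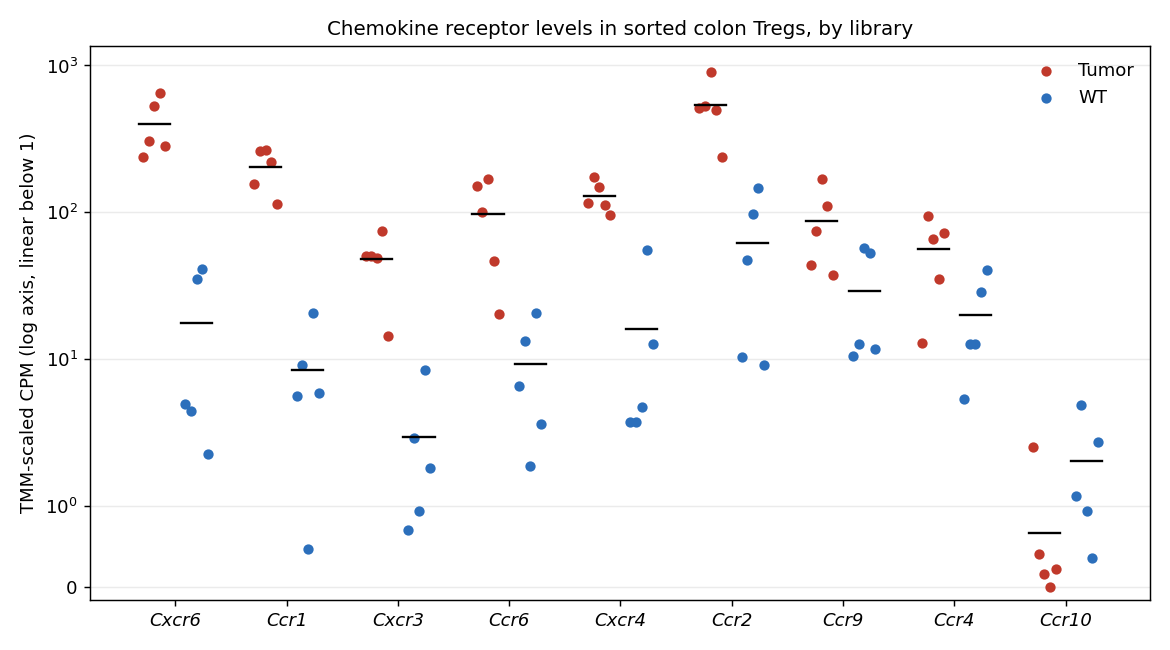
TMM-scaled CPM of the 9 receptors in each of the 5 Tumor and 5 WT libraries (points, log axis that is linear below 1), with group means as black lines. The groups do not overlap for Cxcr6, Ccr1, Cxcr3, Cxcr4 and Ccr2, and Ccr10 lies under 5 CPM in all libraries.

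Promoter sequence is shown for Cxcr6, Ccr1 and Cxcr3, the receptors with the highest log2 fold changes. Sequences are from RefSeq (GRCm38.p6), and 8 of the 9 receptors had a matching entry. Each line gives the 150 bases before the RefSeq start site, 5′ to 3′ on the strand of the gene. For Cxcr3 and Cxcr6 this start site lies inside the gene span given below. Most of the Cxcr3 line, the marked bases included, therefore falls within the span of Cxcr3. Of the Cxcr6 line only the last bases, after the marked ones, fall within the span of Cxcr6. Capitals mark the RUNX core (TGTGGT or its reverse complement).
Cxcr6, chr9:123806327-123806476, plus strand: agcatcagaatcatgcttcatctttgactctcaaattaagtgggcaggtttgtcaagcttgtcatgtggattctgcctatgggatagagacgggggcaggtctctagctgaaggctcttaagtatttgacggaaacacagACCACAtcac
Ccr1, chr9:123968693-123968842, minus strand: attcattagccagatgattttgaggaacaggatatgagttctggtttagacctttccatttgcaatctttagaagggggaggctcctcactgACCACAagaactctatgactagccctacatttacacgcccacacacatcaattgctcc
Cxcr3, chrX:101734148-101734297, minus strand: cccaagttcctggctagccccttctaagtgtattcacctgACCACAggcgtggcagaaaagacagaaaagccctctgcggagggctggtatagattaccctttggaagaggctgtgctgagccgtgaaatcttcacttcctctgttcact

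A set of 4 motifs was searched on both strands in the 250 bases before each start site, and they were chosen after the sequences had been read. For Cxcr3, Cxcr6, Ccr2, Ccr4, Ccr9 and the second start site of Ccr6, these bases lay partly or wholly inside the gene spans given below. The RUNX core occurred before Cxcr6, Ccr1 and Cxcr3 and before no other of the 8 receptors with an entry, and in 14.05% of 32851 promoters. The T-box core (TCACAC) occurred before Cxcr3, upstream of the bases shown, and in 12.3% of promoters. The GATA core (AGATAA) occurred before Ccr2 and the second start site of Ccr6 and in 9.99% of promoters, and the AP-1 core (TGANTCA) before Ccr4 and in 6.75%. None of the motifs overlapped another in these windows. A match of letters is not evidence of binding.

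Cxcr6 (ENSMUSG00000048521, chromosome 9, 123806475 to 123811760, plus strand, mm10) encodes the receptor for CXCL16, a chemokine that dendritic cells and macrophages also carry in membrane-bound form. It stood at 237, 304, 529, 645 and 281 CPM in Tumor replicates 1 to 5, against 4.91, 4.42, 35.2, 40.8 and 2.27 CPM in WT replicates 1 to 5. The lowest Tumor library was above the highest WT library, and WT replicates 3 and 4 were above the other WT libraries. The log2 fold change was 4.52 ± 0.87 (SE, adjusted p = 0.0153, edgeR), a 22.9-fold rise. The adjusted p was 0.0541 without Tumor replicate 3 and 0.0535 without WT replicate 1, with log2 fold changes of 4.37 and 4.20.

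Cxcr6 was the 1 receptor of the 9 called higher relative to T cell RNA. Per 1000 pan-T reads (the geometric mean of the 14 genes) it had 718, 764, 998, 1861 and 1099 reads in Tumor, against 327, 115, 588, 409 and 98.2 reads in WT. The groups did not overlap, which on this scale held in the same direction for 0.112% of tested genes. The pan-T scaled log2 fold change was 1.82 ± 0.75 (SE, adjusted p = 0.0255, edgeR), on a scale where 0.0887% of tested genes were called higher. The call held in 7 of 10 fits that left out 1 library and was lost without Tumor replicate 4 (adjusted p = 0.087), WT replicate 2 (0.0742) or WT replicate 5 (0.0638), while the value ran from 1.53 to 2.19. It was also lost when the epithelial-rich WT replicates 1 and 2 were left out together, at 1.56 ± 0.66 (adjusted p = 0.0533).

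Cxcr3 (ENSMUSG00000050232, chromosome X, 101731535 to 101734269, minus strand) encodes the receptor for CXCL9, CXCL10 and CXCL11, the chemokines induced by interferon gamma. Its levels were 50.02, 50.6, 48.7, 75.1 and 14.5 CPM in Tumor and 0.702, 2.90, 0.939, 8.37 and 1.81 CPM in WT. Tumor replicate 5 was the lowest Tumor library and still above WT replicate 4, the highest of WT. Cxcr3 rose by 4.01 ± 0.75 log2 units (SE, adjusted p = 0.013, edgeR), and the adjusted p was 0.052 without WT replicate 1. With pan-T scaling the value was 1.09 ± 1.03 and did not pass (adjusted p = 0.301), and the groups overlapped at 56.5 to 217 reads per 1000 pan-T reads in Tumor and 15.7 to 83.9 in WT.

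Cxcr3 and Cxcr6 are also used by NK cells and CD8 T cells. The 8 markers of these cells, Cd8a and Ncr1 among them, summed to 220.4 to 1319 CPM in Tumor and 28.7 to 283 CPM in WT. Of the 7 markers tested on TMM only Gzmb and Nkg7 were called higher, where 1.37% of all tested genes were. On the TMM scale, unlike the sums, Gzmb averaged 529 CPM in Tumor and 40.1 CPM in WT, and Nkg7 140 and 9.09 CPM. Cd8a averaged 20.1 and 13.5 CPM on the TMM scale and Ncr1 1.9 and 4.99 CPM, and neither was called. From 0 to 2 of the 8 markers were at 0 reads in a Tumor library and 0 in a WT library. Tumor replicate 4, the highest for the marker sum, was also the highest for Cxcr3 and Cxcr6. Tumor replicate 5, the lowest Tumor library for that sum, had the lowest Cxcr3 of Tumor but more Cxcr6 than Tumor replicate 1. The part of these cells in the receptor values was not tested.

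Ccr1 (ENSMUSG00000025804, chromosome 9, 123962124 to 123968692, minus strand) encodes a receptor for inflammatory chemokines such as CCL3 and CCL5. It was at 157, 263, 265, 221 and 114 CPM in Tumor and 5.62, 9.12, 0.469, 20.7 and 5.90 CPM in WT, where replicate 3 had 1 read. Even the lowest Tumor library, replicate 5, was above every WT library. The log2 fold change of 4.60 ± 0.75 (SE, adjusted p = 0.00612, edgeR), a 24.2-fold rise, was called in 10 of 10 fits that left out 1 library. Per pan-T read Ccr1 also separated the groups, with 473, 661, 500.4, 638 and 447 reads per 1000 pan-T reads in Tumor against 374, 237, 7.84, 208 and 255 in WT, but its value of 1.34 ± 0.83 did not pass (adjusted p = 0.123).

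Ccr2 (ENSMUSG00000049103, chromosome 9, 124101950 to 124113557, plus strand) encodes the receptor for CCL2, CCL7 and CCL12, best known for bringing monocytes into tissue and also used by activated T cells. It had the most reads of the 9 genes when all libraries were summed, and stood at 514, 527, 907, 495 and 236 CPM in Tumor and 10.3, 47.5, 97.6, 145 and 9.07 CPM in WT. The groups did not overlap, and WT replicate 4 was the nearest to the lowest Tumor library, replicate 5. The log2 fold change of 3.11 ± 0.82 did not pass (adjusted p = 0.0605, edgeR), and it passed without WT replicate 4, at 3.68 ± 0.90 (adjusted p = 0.042). Per pan-T read the groups overlapped, at 924 to 1709 reads per 1000 pan-T reads in Tumor and 393 to 1631 in WT, and differed by 0.36 ± 0.73 log2 units (adjusted p = 0.634).

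Monocytes and macrophages express Ccr1 and Ccr2, and their marker sum was higher in Tumor. Of the 11 markers tested 5 were called higher on TMM and 0 lower, where 1.37% and 0.219% of all tested genes were. Relative to pan-T genes 4 of the 11 were called higher and 2 lower, where 0.0887% and 91.5% of all tested genes were. Within Tumor, replicates 5 and 2 had the highest sums of the 12 markers, 6063 and 4931 CPM, and replicates 1, 3 and 4 had 1334, 1455 and 2033 CPM. Ccr1 and Ccr2 were lowest in Tumor replicate 5, both in CPM and per pan-T read. In CPM both genes were above every WT library in each Tumor library. These included replicates 1 and 3, whose marker sums, the lowest of Tumor, still exceeded the 74.7 to 212 CPM of WT. Per pan-T read Ccr2 in Tumor replicate 1, at 1553 reads per 1000, was below WT replicate 3, at 1631. How much of either gene came from myeloid cells was not tested.

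Ccr6 (ENSMUSG00000040899, chromosome 17, 8236043 to 8257141, plus strand) encodes the receptor for CCL20, which the epithelium over gut lymphoid tissue makes. It ran at 150.1, 99.9, 169.8, 46.5 and 20.2 CPM in Tumor and at 6.55, 13.3, 1.88, 20.7 and 3.63 CPM in WT. Tumor replicate 5 lay just under WT replicate 4, so the groups overlapped. Ccr6 rose by 3.38 ± 0.71 log2 units (SE, adjusted p = 0.0215, edgeR). The adjusted p was 0.0645, 0.0681, 0.0828 and 0.0845 without Tumor replicate 1, 2 or 3 or WT replicate 1, and 0.0634 with the replicate number as a block.

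Against T cell RNA, Ccr6 showed 78.9 to 454 reads per 1000 pan-T reads in Tumor and 31.4 to 436 in WT, and its value of 0.074 ± 0.89 did not pass (adjusted p = 0.936). Markers of helper T17 cells, which also carry Ccr6, summed to 57.9 to 361 CPM in Tumor and 42.5 to 107 CPM in WT over 6 genes, with 0 to 1 of them at 0 reads in a Tumor library and 0 to 2 in a WT library. Of the 5 markers tested 1 was called higher on TMM, where 1.37% of all tested genes were. On the pan-T scale 1 was called higher and 4 lower, where 0.0887% and 91.5% of all tested genes were. Tumor replicate 4 had the highest sum and the second lowest Ccr6 of the Tumor libraries. The part of those cells was not tested.

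Ccr9 (ENSMUSG00000029530, chromosome 9, 123678439 to 123784330, plus strand) encodes the receptor for CCL25 and directs lymphocytes mainly to the small intestine. It was at 43.8, 75.01, 168, 109.5 and 37.2 CPM in Tumor and 10.5, 12.7, 57.3, 52.8 and 11.8 CPM in WT. WT replicates 3 and 4 were above Tumor replicates 1 and 5, so the groups overlapped. On the TMM scale the log2 fold change was 1.58 ± 0.63 and did not pass (adjusted p = 0.222, edgeR). With pan-T scaling the sign turned, at -1.46 ± 0.76 (adjusted p = 0.0678), and each Tumor library, with 133, 188, 316, 316 and 145 reads per 1000 pan-T reads, was below each WT library, with 701, 330.1, 957, 529 and 511 reads. Such a separation downward held for 42.5% of tested genes on that scale. Plasma cells use Ccr9 as well, and their 6 markers summed to 59.3 to 413 CPM in Tumor and 50.7 to 3566 CPM in WT, with the top value in WT replicate 3, the highest WT library for Ccr9. Up to 1 of these markers was at 0 reads in a Tumor library and up to 2 in a WT library, and the part of plasma cells was not tested.

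Ccr10 (ENSMUSG00000044052, chromosome 11, 101172997 to 101175443, minus strand) encodes the receptor for CCL27 and CCL28 and guides IgA plasma cells and skin T cells. It had 9, 1, 1, 0 and 1 reads in Tumor and 5, 35, 2, 1 and 6 reads in WT. The 35 reads fell in WT replicate 2, the deepest library (8412887 reads) and the one with the most epithelial RNA. WT replicate 1, also rich in epithelial RNA, had 5 Ccr10 reads. WT replicate 3, with the most plasma cell RNA and 1676229 reads in all, had 2. The source of the Ccr10 reads was not tested. The 0 of Tumor replicate 4 allows up to 3 reads, or 0.518 CPM, by counting error alone. In a fit without the filter on low counts the log2 fold change was -1.45 ± 1.53 (adjusted p = 0.659, edgeR), and a difference was not detectable at this depth.

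Ccr4 (ENSMUSG00000047898, chromosome 9, 114490316 to 114504916, minus strand) encodes the receptor for CCL17 and CCL22, which dendritic cells make and which attract Tregs. Its levels were 12.9, 94.9, 65.6, 35.3 and 72.5 CPM in Tumor and 5.38, 12.7, 12.7, 28.8 and 40.4 CPM in WT. Tumor replicate 1 was below WT replicates 4 and 5, and Tumor replicate 4 below WT replicate 5. The log2 fold change was 1.498 ± 0.62 on the TMM scale and did not pass (adjusted p = 0.247, edgeR).

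On the pan-T scale Ccr4 was called lower in Tumor, at -1.89 ± 0.87 (adjusted p = 0.0414, edgeR), on the scale where 91.5% of tested genes were called lower. There were 39.1, 238, 124, 102 and 283 reads per 1000 pan-T reads in Tumor against 358, 330.1, 212, 288 and 1749 in WT, and Tumor replicates 2 and 5 overlapped with WT replicate 3. WT replicate 5 stood far above the rest, and without it the value was -0.92 (adjusted p = 0.329). The call was also lost without Tumor replicate 1, 3 or 4 (adjusted p = 0.106, 0.0853 and 0.0905).

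Cxcr4 (ENSMUSG00000045382, chromosome 1, 128588199 to 128592293, minus strand) encodes the receptor for CXCL12 and holds leukocytes in bone marrow and stroma-rich tissue. It was at 115, 174, 148, 112 and 95.4 CPM in Tumor, the narrowest spread of the 9 genes (coefficient of variation 24.5%), and at 3.74, 3.73, 4.69, 55.7 and 12.7 CPM in WT. WT replicate 4 lay far above the other WT libraries and below all Tumor libraries. The log2 fold change was 3.01 ± 0.74 (SE, adjusted p = 0.0439, edgeR). Of the 10 fits without 1 library only that without WT replicate 4 kept the call, at 4.41 log2 units (adjusted p = 0.00444). The other fits gave adjusted p from 0.062 without WT replicate 2 to 0.137 without Tumor replicate 2, with 0.0929, 0.123, 0.0896 and 0.0681 without Tumor replicates 1, 3, 4 and 5 and 0.134, 0.0754 and 0.0766 without WT replicates 1, 3 and 5. The call was also lost under other scalings. With pan-T scaling the value was 0.21 ± 0.82 (adjusted p = 0.805), with 279 to 437 reads per 1000 pan-T reads in Tumor inside the 78.4 to 558 of WT.

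**Figure D2:**
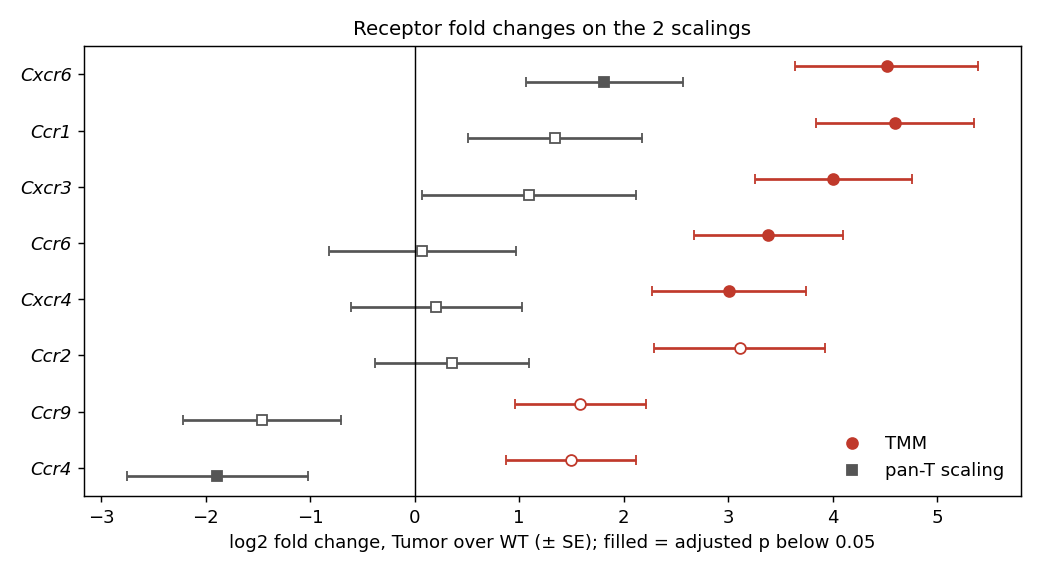
Log2 fold changes (Tumor over WT, bars are SE) of the 8 tested receptors on TMM (circles) and with pan-T scaling (squares), filled where the adjusted p was below 0.05. Values run from 1.498 to 4.60 on TMM and from -1.89 to 1.82 with pan-T scaling.

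**Figure D3:**
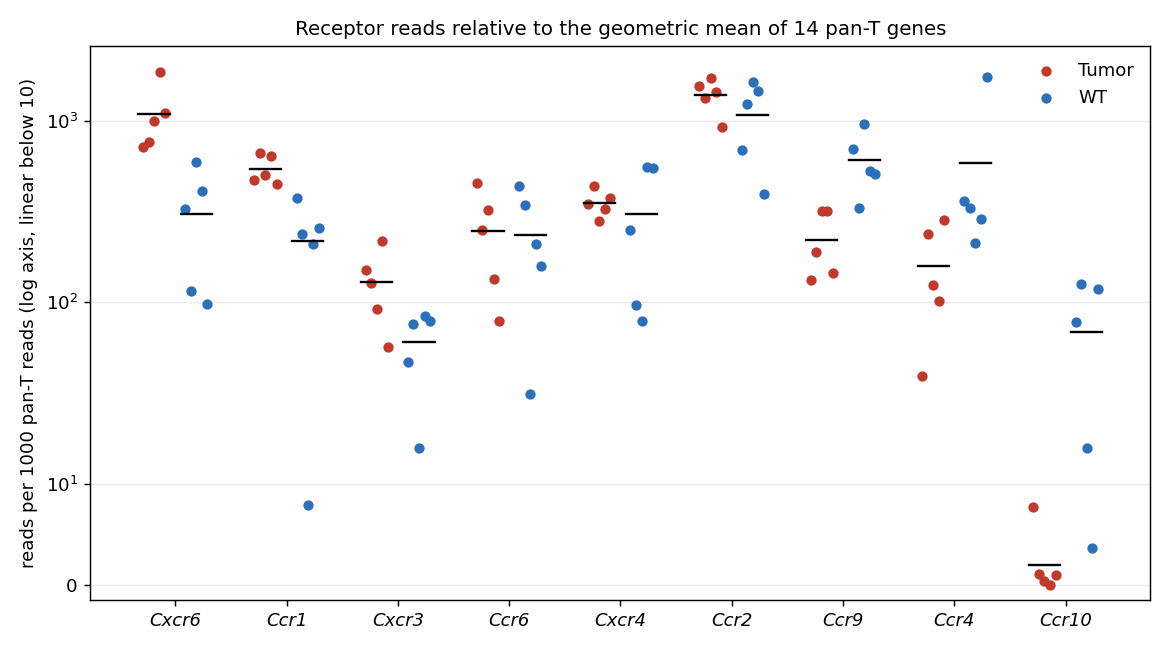
Reads of each receptor per 1000 pan-T reads (geometric mean of 14 genes) in each library, on a log axis that is linear below 10, with group means as black lines. Cxcr6 and Ccr1 lie higher in all Tumor libraries, Ccr9 lies lower, and the other 6 receptors overlap.

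Levels of different genes were compared per kilobase of the gene length deposited with the counts. This length equals all exon bases of a gene, 10260 for Ccr9 and 6760 for Ccr2. A gene whose transcripts hold only part of these bases is set too low, and the order carries this limit. In Tumor the order was Cxcr6 (207 ± 92.1 CPM per kb, SD, n = 5), Ccr2 (79.2 ± 35.4), Ccr1 (72.04 ± 23.6), Cxcr4 (71.3 ± 17.4), Ccr6 (41.9 ± 27.7), Cxcr3 (27.6 ± 12.5), Ccr4 (18.2 ± 10.4), Ccr9 (8.44 ± 5.23) and Ccr10 (0.386 ± 0.609). Only the last step, from Ccr9 to Ccr10, separated neighbours without overlap of their libraries. In WT all 9 genes lay between 1.16 ± 1.05 CPM per kb for Ccr10 and 9.16 ± 8.71 for Ccr2, and every neighbour in the order overlapped.

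The make-up of the receptor group within a library does not depend on how libraries are scaled. As a share of the summed CPM per kb of the 9 genes, Cxcr6 made up 29.2 to 52.8% in Tumor and 3.91 to 38.8% in WT, and WT replicate 3, at 38.8%, lay above 3 Tumor libraries. Ccr4 took 0.992 to 7.37% in Tumor and 8.52 to 43.5% in WT, without overlap. Ccr9 took 1.01 to 2.26% in Tumor and 3.83 to 11.9% in WT, also without overlap. The shares of Ccr1, Ccr2, Ccr6, Cxcr3, Cxcr4 and Ccr10 overlapped between the groups. WT shares rest on few reads: the 9 genes together had 209, 805, 451, 1026 and 199 reads in WT replicates 1 to 5. In Tumor they had 3799 to 14177. Shares of 1 library sum to 100%, so a high share of Cxcr6 lowers the others, and no test was run on the shares.

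**Figure D4:**
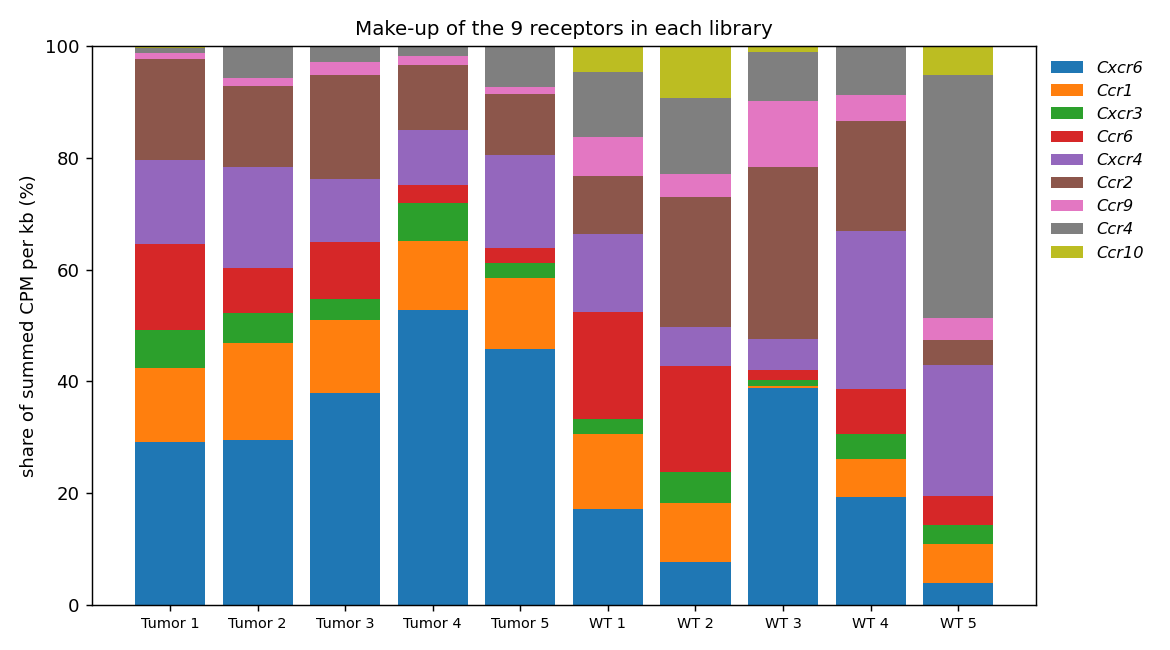
Share of each receptor in the summed CPM per kb of the 9 genes, in percent, for the 5 Tumor and 5 WT libraries. Cxcr6 fills 29.2 to 52.8% of the Tumor bars, and Ccr4 and Ccr9 fill more of each WT bar than of any Tumor bar.

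The libraries of a group differed along the whole receptor group. Tumor replicate 5 was the lowest Tumor library for 6 of the 9 receptors and Tumor replicate 3 the highest for 4. WT replicate 4 was the highest WT library for 6. That library also had the highest pan-T level of WT, 101 CPM. Coefficients of variation were 24.5 to 66.2% in Tumor for the 8 tested genes and 71.3 to 139% in WT.

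Of the 9 receptors, Ccr9, Cxcr6, Ccr1 and Ccr2 belong to the chemokine receptor cluster of chromosome 9, which also holds Xcr1 and Ccr3. Of the tested protein coding genes between Sacm1l and Ccr2, none outside the 9 receptors was called, and differences between neighbours were not tested. Fyco1, which spans Cxcr6 on the other strand and encodes an autophagosome adaptor, had a log2 fold change of 0.54 ± 0.55 (adjusted p = 0.641, edgeR). Lztfl1, a ciliary trafficking gene inside the span of Ccr9, had 0.66 ± 0.48 (adjusted p = 0.506). Xcr1, the receptor of cross-presenting dendritic cells, had 2.39 ± 0.87 (adjusted p = 0.188) and Ccr3, the eotaxin receptor, 0.37 ± 0.87 (adjusted p = 0.861).

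**Figure D5:**
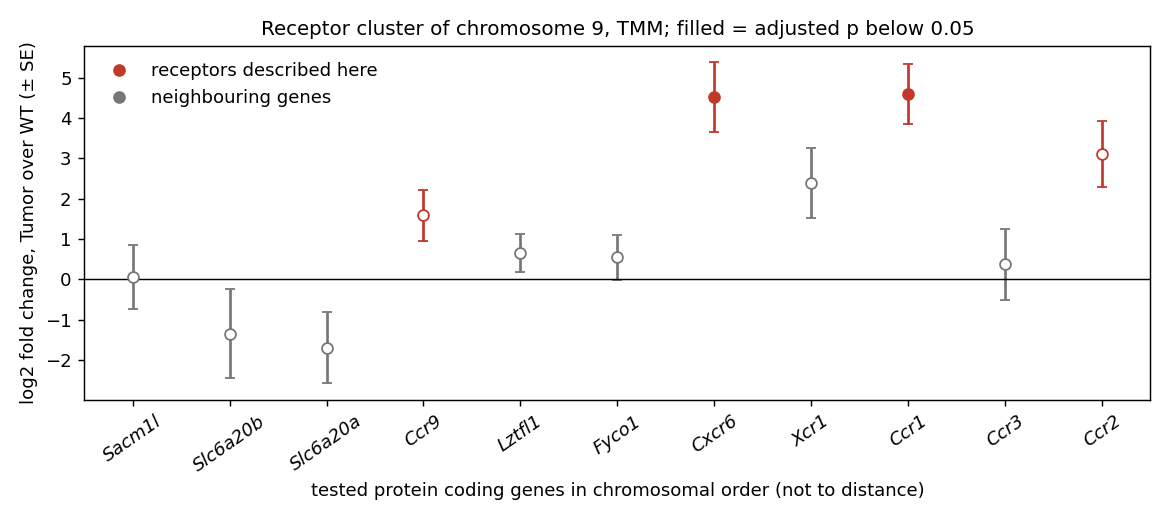
Log2 fold changes (Tumor over WT on TMM, bars are SE) of the 11 tested protein coding genes from Sacm1l to Ccr2 on chromosome 9 in chromosomal order, filled where the adjusted p was below 0.05. Cxcr6 and Ccr1 are the filled points, and the unfilled points run from -1.69 for Slc6a20a to 3.11 for Ccr2.

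Reads shared with other genes touch some receptors. The strand setting of the counting was not given in the sources used here, so overlapping genes could not be told apart. No exon base of Cxcr6 was shared with Fyco1 and none of Ccr10 with Cntnap1, which spans it. Of the 10260 exon bases of Ccr9, 22 were shared with Slc6a20a and 269 with Gm17200. Of all 50-base stretches of Ccr9 transcripts 20.1% also occurred in transcripts of other genes, so its reads are uncertain. For Ccr2 this share was 1.91%, for Ccr4 0.465%, and for the other 6 receptors 0%.

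Beside the 9 receptors, 15 other chemokine and atypical receptors were listed, of which 12 were tested. On TMM 1 was called higher and 1 lower, where 1.37% and 0.219% of all tested genes were. The median log2 fold change was 1.58, against -0.20 over all tested genes. The higher one was Ccr8, a receptor of activated tissue Tregs, at 6.31 ± 0.94 (SE, adjusted p = 0.00566, edgeR). The lower one was Ackr4, a scavenger of CCL19, CCL21 and CCL25 known from stromal cells, with 4, 0, 5, 3 and 2 reads in Tumor and 16, 49, 72, 41 and 9 in WT. Each Tumor library was below each WT library, which held for 1.57% of tested genes, and the log2 fold change was -4.32 ± 1.06 (adjusted p = 0.0441). Among the 10 tested receptors without a call the log2 fold changes were 2.63 ± 0.67 for Ccrl2, 2.28 ± 0.64 for Cx3cr1, 1.85 ± 0.77 for Ackr3, 1.31 ± 0.86 for Ccr7, 0.65 ± 1.11 for Cxcr2, -0.84 ± 0.94 for Cxcr5 and -1.76 ± 1.06 for Ackr2, besides those of Xcr1 and Ccr3 given above. Ackr1, Ccr1l1 and Cxcr1 did not pass the filter on low counts. Relative to pan-T genes Ccr8 stayed higher (3.25 ± 1.05, adjusted p = 0.00656). On that scale 4 of the 12 were called lower, where 91.5% of all tested genes were. The median of the list was -1.48, against -3.68 over all tested genes.

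Of 18 genes for ligands of the 9 receptors, 16 were tested and Ccl5 alone rose on TMM (median 0.79), where 1.37% of all tested genes did. Ccl5, a ligand of Ccr1 that T cells make themselves, was at 52.5, 101, 81.2, 184 and 18.6 CPM in Tumor and 4.91, 5.80, 2.35, 22.2 and 0.454 CPM in WT, where replicate 4 was above Tumor replicate 5. Its log2 fold change was 3.60 ± 0.80 (SE, adjusted p = 0.0295, edgeR) on TMM and 0.61 ± 0.96 (adjusted p = 0.533) relative to pan-T genes.

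Among 20 genes of receptor signalling and turnover 3 rose on TMM, where 1.37% of all tested genes did, and 17 were not called (median 1.20). Rac2, the small GTPase of blood cells that drives actin at the leading edge, rose by 3.70 ± 0.81 log2 units (adjusted p = 0.0274, edgeR). Arrb2, encoding beta-arrestin 2, which takes activated receptors off the membrane, rose by 2.85 ± 0.56 (adjusted p = 0.0153), and Gng2, a G protein gamma subunit, by 2.81 ± 0.63 (adjusted p = 0.0297). In all 3 the groups did not overlap, as in 4.38% of tested genes. With pan-T scaling the values were 0.78 ± 0.80, -0.22 ± 0.77 and -0.13 ± 0.82 and did not pass.

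Of 16 transcription factor genes of T cell states that use these receptors 15 were tested (median 1.89). On TMM 2 rose, where 1.37% of all tested genes did. Gata3, linked to Ccr4 and Ccr8 expression, rose by 3.33 ± 0.74 (adjusted p = 0.0283, edgeR) and Klf2, a factor of lymphocyte trafficking, by 2.76 ± 0.59 (adjusted p = 0.0242). Tbx21, which encodes T-bet, the factor known to support Cxcr3, averaged 17.1 ± 9.44 CPM in Tumor and 8.27 ± 3.15 CPM in WT (SD, n = 5 each), and its log2 fold change, 1.05 ± 0.72, missed the threshold (adjusted p = 0.476). On the pan-T scale, where 91.5% of tested genes were called lower, Tbx21 was too, at -2.43 ± 1.01 (adjusted p = 0.0265). Tbx21 was named after its values were seen. Relative to pan-T genes neither Gata3 (0.61 ± 0.70) nor Klf2 (-0.54 ± 0.74) was called, and 6 of the 15 were lower.

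The genes whose library-to-library pattern was most like that of a called receptor were found by Pearson's r of the deviations of log2 CPM from the group means, over the 10 libraries and 12165 protein coding genes. The 2 most alike were Sit1 (r = 0.983) and Crkl (0.969) for Ccr1, Fam110a (0.946) and Ftsj3 (0.943) for Ccr6, and Ctsw (0.955) and Gpr15 (0.944) for Cxcr3. For Cxcr4 they were Nfkbie (0.958) and Ier5l (0.940), and for Cxcr6 Plcxd2 (0.978) and Crlf3 (0.968). Gpr15, itself a homing receptor of large intestine T cells, had a log2 fold change of 4.31 (adjusted p = 0.0224, edgeR). Sit1, Fam110a and Ctsw were also called higher on TMM, at 3.54, 2.85 and 2.93. Crkl, Ftsj3, Nfkbie, Ier5l, Plcxd2 and Crlf3 were not called, with values from 0.51 for Plcxd2 to 2.27 for Crlf3. All these genes share the libraries and their content of T cell RNA, and the highest of so many correlations is high by selection.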

How the data were processed

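Smart-seq2 libraries of sorted colon Tregs, 5 Tumor and 5 WT, were grouped by their titles. The deposited values are raw read counts per gene, not normalized. Per the submitters' processing notes the build was mm10 and the tools were HISAT2 2.0.5 and featureCounts 1.5.0-p3, and the annotation release is not given in the sources used here. The coordinates of the 9 receptors matched GENCODE M21.

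Counts were analysed in R 4.3.3 with edgeR 4.0.16: filterByExpr (minimum count 10, minimum total 15; 21414 genes kept), TMM, and a robust quasi-likelihood F test, 2-sided, with group as the only term. Adjusted p-values (Benjamini-Hochberg) cover all genes tested. The SE is the log2 fold change divided by the square root of F. The common dispersion was 0.742. The procedure was tested on simulated data with a dispersion shared by all genes and no difference in cell content between libraries. That test therefore does not cover the differences in epithelial and T cell RNA seen here. No 2 libraries were duplicates: over 45 pairs the chi-square divided by its degrees of freedom was at least 25.7. Reads carry no molecular identifiers, so floors cover counting error only.

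The members and lists were chosen with earlier results of these data known. Named genes were the 9 receptors, the tested other receptors, the called ligand, signalling and transcription factor genes, chromosomal neighbours and the 2 most alike genes per called receptor (mean of at least 10 CPM, pseudocount 0.5). Alternatives were RLE factors, total counts, pan-T scaling, DESeq2 1.42.0, limma voom 3.58.1, other filters, a replicate block, an adjusted p below 0.01 and libraries left out, and, chosen after seeing the data, pan-T scaling with libraries left out. Some members of the lists are counted but not reported here by name.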

Additional observations from a re-analysis of the deposited data

Results flagged for a closer look

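Among 18 groups of 5 libraries (9 receptors in Tumor and WT), 3 held a library far from the other 4. Chance gives about 1 in 20 for normally distributed values, and whether these CPM follow that distribution was not tested. Ccr10 stood at 2.53 CPM in Tumor replicate 1, from 9 reads, against 0 to 0.414 CPM in the other 4 Tumor libraries. Cxcr4 stood at 55.7 CPM in WT replicate 4 and at 3.73 to 12.7 CPM in the other 4 WT libraries. Cxcr3 stood at 8.37 CPM in WT replicate 4 and at 0.702 to 2.90 CPM in the others. WT replicate 4 also had the highest pan-T level of WT (101 CPM), and the part of this in either value was not tested.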

How the results depend on the processing

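Of 168 values of the 8 tested receptors under the alternatives listed first in the processing account, 130 kept their direction and side of the threshold, 28 kept their direction and lost a call, 8 kept it and gained one, and 2 turned sign: Ccr4 at -1.89 and Ccr9 at -1.46 with pan-T scaling. The count of 5 called receptors became 2 with pan-T scaling, 8 without WT replicates 3, 4 and 5, and 1 at an adjusted p below 0.01, and 1 to 6 when single libraries were left out. With pan-T scaling it was 2 without WT replicates 1 and 2 (Ccr4 and Ccr9 lower, Cxcr6 no longer called), 2 without WT replicates 3, 4 and 5 (Cxcr6 higher, and lower Ccr10, which passed the filter on low counts in that fit), and 0 to 2 without single libraries. The count of 340 called genes (293 higher, 47 lower) became 19621 (19, 19602) with pan-T scaling, 2237 (645, 1592) with DESeq2, 820 (479, 341) with no filter, 479 (455, 24) with limma voom, 141 (138, 3) with the replicate block, 1993 without WT replicates 1 and 2, 1325 without WT replicates 3, 4 and 5, 52 at an adjusted p below 0.01, and 65 to 417 without single libraries. With pan-T scaling it was 14915 without WT replicates 1 and 2, 22176 without WT replicates 3, 4 and 5, and 19869, 20348, 19279, 19692 and 20612 without Tumor replicates 1 to 5 and 17386, 20552, 21067, 20810 and 19023 without WT replicates 1 to 5. Cxcr4 was not called with RLE factors (2.79, adjusted p = 0.0671), total counts (2.71, 0.0708) or the stricter filter of 10 CPM in 5 libraries (2.55, 0.0727). Ccr2 was called with DESeq2 (2.91, adjusted p = 0.00945), limma voom (3.77, 0.00984) and no filter (3.23, 0.00586). Without WT replicates 3, 4 and 5, Ccr4 (2.57, adjusted p = 0.0308) and Ccr9 (2.88, 0.00448) were called higher. The causes of these changes were not tested.

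With pan-T scaling and libraries left out, Ccr4 and Ccr9 were negative in every fit, and Ccr6 and Cxcr4 in some. Without WT replicates 1 and 2 the values were -2.24 for Ccr4, -1.60 for Ccr9 (adjusted p = 0.0452) and -0.16 for Cxcr4, and without WT replicates 3, 4 and 5 they were -1.13 for Ccr4, -1.22 for Ccr9 and -0.65 for Ccr6. Ccr4 was at -1.64, -2.09, -1.81, -1.77 and -2.21 without Tumor replicates 1 to 5 and at -2.02, -2.04, -2.10, -2.06 and -0.92 without WT replicates 1 to 5. Ccr9 was at -1.32, -1.41, -1.63, -1.63 and -1.34 without Tumor replicates 1 to 5 and at -1.40, -1.62, -1.23, -1.51 and -1.51 without WT replicates 1 to 5. Ccr6 was at -0.26 and -0.036 without Tumor replicate 1 or 3 and at -0.21 and -0.036 without WT replicate 3 or 5. Cxcr4 was at -0.026 and -0.041 without WT replicate 2 or 3.

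Tumor and WT libraries of the same number did not deviate alike from their group means (correlations from -0.126 to 0.038). The labels do not say whether the numbers pair samples, and these correlations cannot decide it. With the replicate number as a block 4 receptors were called, Ccr6 being lost (3.39, adjusted p = 0.0634). Depth limits Ccr10 most, with fewer than 10 reads in 9 of 10 libraries.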
